A study of Mus musculus with 4 samples.

Results

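The exons described here belong to 10 mouse genes of the microtubule cytoskeleton: *Mapt* (tau), *Map2*, *Map4*, *Klc1*, *Dync1i1*, *Dync1i2*, *Clip1*, *Clasp1*, *Clasp2* and *Macf1*. They were measured as exon trios, a middle exon with its neighbor on each side, and a trio was taken when its chromosome, strand, middle exon length and both intron lengths matched a transcript of 1 of these genes. Of 402 matched trios, 401 had at least 20 junction reads in both libraries of a stage, among 166917 trios that did so in the whole series. With 1 trio kept for each middle exon and event class, the one with the most junction reads, the 402 trios gave 305 events. PSI is the percentage at which the middle exon is included within its trio, rather than skipped. It is not a share of all transcripts of the gene. It could be compared in 300 events at each stage. Of the other 5, 1 had too few reads and 4 have no estimate, because the ratio is listed at 0 beside inclusion reads and no skipping read.

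The libraries came from mice that lack the splicing regulator PTBP2, and from animals labelled wild type. The sample labels spell the background of all of them as mixed C56Bl/6:129S2. In the Nestin knockout (NesKO), Cre driven by the nestin promoter removes exon 4 of *Ptbp2* in neural progenitors and their descendants, and in the Emx knockout (EmxKO) Emx1-driven Cre removes it mainly in excitatory neurons and glia of the dorsal forebrain. PolyA+ RNA of whole brain at embryonic day 18 (E18), 2 brains per library, gave the NesKO and the E18 wild-type libraries, and cortex at postnatal day 1 (P1) gave the EmxKO library and a library labelled wild type. Each group has 1 library, so no difference has a replicate check, and stage, tissue, Cre line and library type (strand specific only at P1) cannot be told apart. Where 4 values stand together below, the first pair is NesKO then wild type at E18, and the second pair is EmxKO then the library labelled wild type at P1.

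In the targeted exon of 173 nt, 257 reads skipped it and 0 entered it in the NesKO, against 1 skipping read in the E18 wild type. The EmxKO had 680 skipping reads and a PSI of 15.9. The P1 library labelled wild type had 604 skipping reads and a PSI of 67.5, so every P1 difference below is a difference from a library in which part of the *Ptbp2* transcripts skipped the targeted exon. Distinct junctions carried 48367448 reads in the NesKO, 50188724 in the E18 wild type, 83110007 in the EmxKO and 83394001 in the P1 library labelled wild type. The median member event had 544, 793.5, 1797 and 1878 junction reads in these libraries, at which 3 reads, the smallest share read here, are 0.551%, 0.378%, 0.167% and 0.16%. All 5 neuronal markers were detected in every library. All 5 were lower in the NesKO than in the E18 wild type. In the EmxKO 3 of 5 were lower, while *Tubb3* and *Rbfox3* were higher. The summed level of the neuronal markers was 210.3, 229.7, 334.4 and 279.7 reads per junction per 1000000 junction reads. Most of it was *Tubb3*, at 193, 198.8, 305.3 and 242.6. The synaptic gene *Snap25* had the lowest ratio of knockout to wild type of the 5 at both stages, at 6.94, 14.8, 4.94 and 9.76. Of 5 astrocyte and radial glia markers, 1 was higher in the NesKO and 3 in the EmxKO. *Gfap* was higher in both knockouts, at 3.87, 1.39, 1.69 and 0.722. The summed level of the 5 was 123.9, 127.5, 40.9 and 65.6, most of it *Fabp7* at 112.9, 114.1, 29.96 and 55.87. The summed level of 4 dorsal cortex markers was 10.8 to 11.5 at E18 and 34.9 to 40.4 at P1. The summed level of 8 markers of cells outside the dorsal cortex was lower in both knockout libraries, at 5.13 in the NesKO and 7.80 in the E18 wild type, and at 0.606 in the EmxKO and 1.17 in the P1 library labelled wild type; 1 of the 8 was higher in the NesKO and 4 in the EmxKO, most of the P1 sum was *Slc17a6* (0.489 and 1.06), and 3 had no read in at least 1 library. The part of these markers in the values below was not tested.

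Microtubules are polar polymers of tubulin that give axons and dendrites their shape and serve as tracks for transport. Tau, MAP2 and MAP4 bind along the microtubule wall through a row of repeats, CLIP and CLASP proteins follow the growing plus end, and MACF1 is a giant linker between microtubules and actin. Kinesin-1 carries cargo toward the plus end through its light chains, and cytoplasmic dynein moves the other way with the intermediate chains that *Dync1i1* and *Dync1i2* encode. Many of these genes have exons that are spliced differently in neurons and other cells or change during development, the best known being exon 10 of tau, which adds 1 microtubule-binding repeat.

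That repeat exon has a counterpart of the same length in *Map2* and *Map4*, and all 3 are alternatively used. The exons of *Map2* and *Map4* are shown because they were used at very different levels. Capitals mark the 59 of 93 positions at which both exons carry the same base, and the sequences are from GENCODE release M21 on GRCm38. Exon numbers count along the matched transcript, which can differ between exons of a gene, so they do not give the order of its exons.
*Map2*, exon 12, 93 nt: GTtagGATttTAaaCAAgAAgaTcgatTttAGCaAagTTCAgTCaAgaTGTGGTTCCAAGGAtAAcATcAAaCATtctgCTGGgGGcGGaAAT
*Map4*, exon 7, 93 nt: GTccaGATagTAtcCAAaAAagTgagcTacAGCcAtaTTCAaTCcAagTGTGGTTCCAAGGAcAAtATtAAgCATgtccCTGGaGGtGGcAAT

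Without gaps, these exons of *Map2* and *Map4* shared 63.4% of their bases. The dynein intermediate chains have a pair of 60-nt exons with 46 bases in common (76.7%), again in capitals.
*Dync1i1*, exon 5, 60 nt: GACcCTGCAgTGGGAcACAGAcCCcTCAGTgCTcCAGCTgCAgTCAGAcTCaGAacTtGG
*Dync1i2*, exon 6, 60 nt: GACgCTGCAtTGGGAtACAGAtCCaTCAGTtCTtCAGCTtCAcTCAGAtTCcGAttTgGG

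*Clasp1* and *Clasp2* have 4 pairs of alternatively used exons of equal length with at least 50% identity, and all 8 exons are multiples of 3 nt. The 63-nt pair shares 42 bases, and the 24-nt pair that lies upstream in both genes shares 13 bases (54.2%).
*Clasp1*, 63 nt: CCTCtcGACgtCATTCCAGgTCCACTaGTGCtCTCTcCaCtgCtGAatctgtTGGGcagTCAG
*Clasp2*, 63 nt: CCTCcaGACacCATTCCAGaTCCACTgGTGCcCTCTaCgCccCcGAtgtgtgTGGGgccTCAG
*Clasp1*, 24 nt: AcGgTACTaCcactAAagcGGAgG
*Clasp2*, 24 nt: AgGaTACTtCtgacAAgatGGAtG

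The 2 exons with the largest differences carried by many reads, both at P1, have no counterpart with that identity. They are a 117-nt exon of *Clasp1* on chromosome 1, from 120461720 to 120461836 in the mouse genome build mm9, and a 114-nt exon of *Map4* on chromosome 9, from 109973530 to 109973643, both on the plus strand and both coding.
*Clasp1*, exon 35, 117 nt: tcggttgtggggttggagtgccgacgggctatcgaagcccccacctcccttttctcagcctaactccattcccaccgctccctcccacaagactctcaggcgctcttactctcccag
*Map4*, exon 14, 114 nt: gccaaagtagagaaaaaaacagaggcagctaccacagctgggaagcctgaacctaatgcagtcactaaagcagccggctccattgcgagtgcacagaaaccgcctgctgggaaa

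Most exons of the 10 genes were almost always included within their trios. Of 305 events, 251 had a PSI of at least 95 in every library, and 194 were at 99.9 in all 4. In 9 events, 3 of them in *Mapt*, PSI was below 5 in every library. PSI lay between 5 and 95 in at least 1 library in 40 events, which are 37 different exons, since *Map4* and *Clip1* exons are listed in more than 1 class. The 37 exons had a median length of 79 nt, and 29 of them (78.4%) were multiples of 3 nt, so that skipping keeps the reading frame. Among the other 261 member exons the median was 126 nt and 47.9% were multiples of 3. In the whole series, 43.4% of alternatively used exons were multiples of 3. Of the 40 events, 38 are coding; the 63-nt exon of *Map2* is in the 5′ UTR and a 97-nt exon of *Mapt* is known from a noncoding transcript.

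Splicing of these genes differed little between the NesKO and the wild-type brain at E18. A difference of at least 10 PSI points was seen in 1 of 300 events, lower in the NesKO. In the whole series, 2.22% of 133046 events passed this cutoff (1.28% higher and 0.942% lower). All events of the series include alternative splice site trios, a class that the members lack. Among exons labelled cassette exons, 0 of 34 members passed, beside 11% of 6714 in the whole series. At P1, 2 of 300 members passed the cutoff, 1 higher and 1 lower in the EmxKO, beside 1.47% of 132443 events (0.909% higher and 0.561% lower). Of 34 members labelled cassette exons, 1 passed at P1, beside 9.47% of 6906. The median absolute difference was 0 points in the members and in all events at both stages. Among exons labelled cassette exons it was 1.95 points in the members and 1.6 in the whole series at E18, and 1.5 and 1.6 at P1. At E18, 292 members (97.3%) differed by less than 5 points, beside 95.2% of all events. At P1, 291 members (97%) did so, beside 96.2%. Of members labelled cassette exons, 91.2% did so at each stage, beside 74.8% at E18 and 76.8% at P1 in the whole series. Junction reads of the 2 libraries of a stage were compared by Fisher's exact test, two-sided, with Benjamini-Hochberg adjustment over all events of the stage. An adjusted p below 0.05 was found in 1 member at E18, beside 0.249% of all events, and in 3 members at P1, beside 0.492%. These p-values say whether the reads of 2 libraries differ and carry no information on animals. Both criteria were met by 0 of 300 members at E18, beside 0.155% of all events, and by 1 of 300 at P1, beside 0.207%.

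Among the 40 alternatively used events, the median absolute difference was 2.45 points at E18 and 3.2 points at P1. PSI was higher in the NesKO in 20 and lower in 18, and higher in the EmxKO in 24 and lower in 15. For PSI computed from junction reads alone, the 95% interval of the difference lay within 10 points on either side of 0 in 24 of the 40 events at E18 and in 33 at P1. In the other events the reads did not limit the difference to that range. Intervals here are from Wilson limits by Newcombe's method and cover counting error only, since PCR copies are not independent molecules. The 10-point cutoff was passed by 14 of 638 E18 events (2.19%) and 7 of 641 P1 events (1.09%) in a list of 42 other microtubule-binding genes, and by 7 of 403 (1.74%) and 3 of 400 (0.75%) in a list of 33 dynein, dynactin and adaptor genes. Of these lists, a 105-nt exon of *Clip2*, which encodes another plus-end protein, had the largest difference with an adjusted p below 0.05, at 94.5 in the NesKO, 64.4 in the E18 wild type, 91.4 in the EmxKO and 66.9 in the P1 library labelled wild type (adjusted exact p = 4.0e-61 at E18 and 3.4e-77 at P1). A 24-nt exon of *Ckap5*, which encodes a microtubule polymerase, was at 48.2, 25.3, 41.6 and 29.6 in the same order (adjusted exact p = 7.1e-05 and 0.0059). A 111-nt exon of *Map7d2* was at 67.0, 85.6, 89.6 and 91.2 (adjusted exact p = 3.0e-04 and 1).

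**Figure D1:**
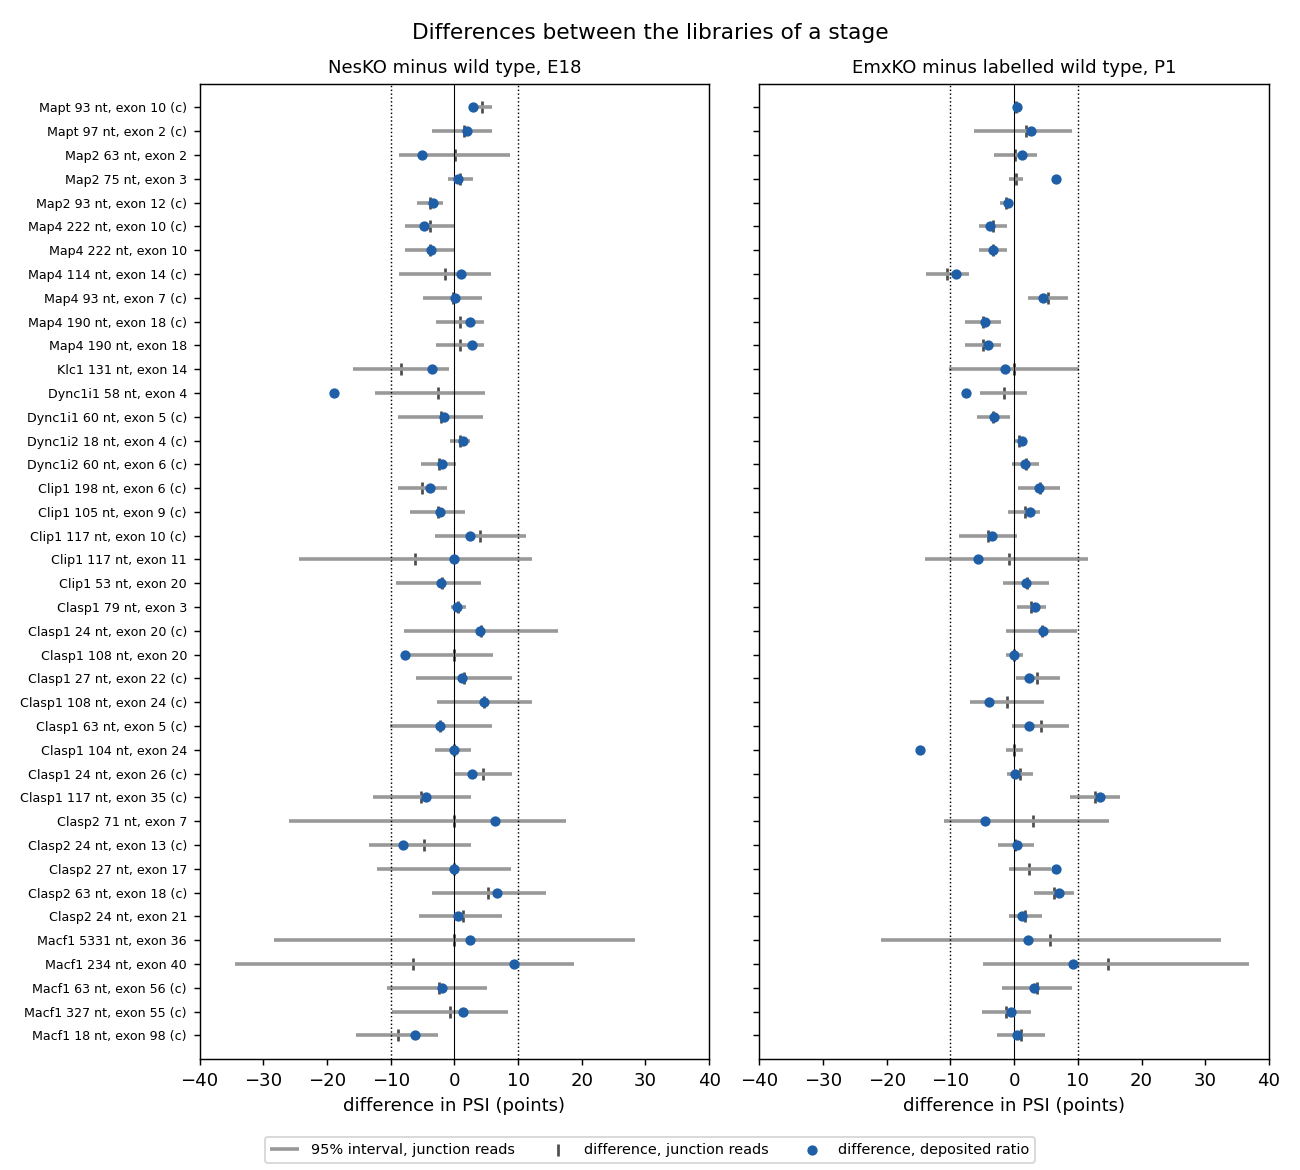
Difference in PSI (points, x axis) between the libraries of E18 (left) and P1 (right) for the 40 alternatively used events. Blue dots are from the deposited ratio, ticks and grey bars are the difference and its 95% interval from junction reads, and dotted lines mark 10 points; at P1 the 117-nt *Clasp1* exon lies at 13.4 points and the 114-nt *Map4* exon at -9.1.

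Tau exon 10 was rarely used in all 4 libraries. Its PSI was 8.1 in the NesKO brain, 5.2 in its wild type, 2.1 in the EmxKO and 1.6 in the P1 library labelled wild type. At E18 the first-listed and second-listed junctions of the exon had 389 and 145 reads against 2057 skipping reads in the NesKO, and 252 and 106 against 2310 in the wild type. The NesKO library was thus higher by 2.9 points (adjusted exact p = 2.1e-04). From junction reads the difference was 4.3 points (2.7 to 6.0). From the first-listed junction, an alternative chosen after seeing the data, it was 6.1 points. With the smaller junction in place of the mean, p was 0.31. At P1, with 9647 and 8117 skipping reads, the difference was 0.5 points (adjusted exact p = 1). The test of the difference between the stages, a Wald chi-square test on log odds ratios, gave an adjusted p of 1. The other alternatively used exon of *Mapt*, of 97 nt on chromosome 11 from 104182377 to 104182473, was at 3.9, 1.9, 16.8 and 14.2, with 3, 0, 14 and 6 reads on its first junction.

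The matching repeat exon of *Map2*, which encodes a dendritic microtubule-associated protein, was also rarely used. It lies on chromosome 1 from 66478101 to 66478193 and had a PSI of 2.1 in the NesKO, 5.4 in the E18 wild type, 1.8 in the EmxKO and 2.8 in the P1 library labelled wild type. The knockout library was the lower one at both stages, with differences of -3.3 and -1.0 points, but neither passed the test (adjusted exact p = 0.18 and 1). In *Map4*, the broadly expressed member of the family, the exon (chromosome 9, 109975117 to 109975209) was mostly included. Its PSI was 85.9 and 85.8 in the E18 libraries, and 65.9 in the EmxKO against 61.4 in the P1 library labelled wild type (adjusted exact p = 1 and 0.16).

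**Figure D2:**
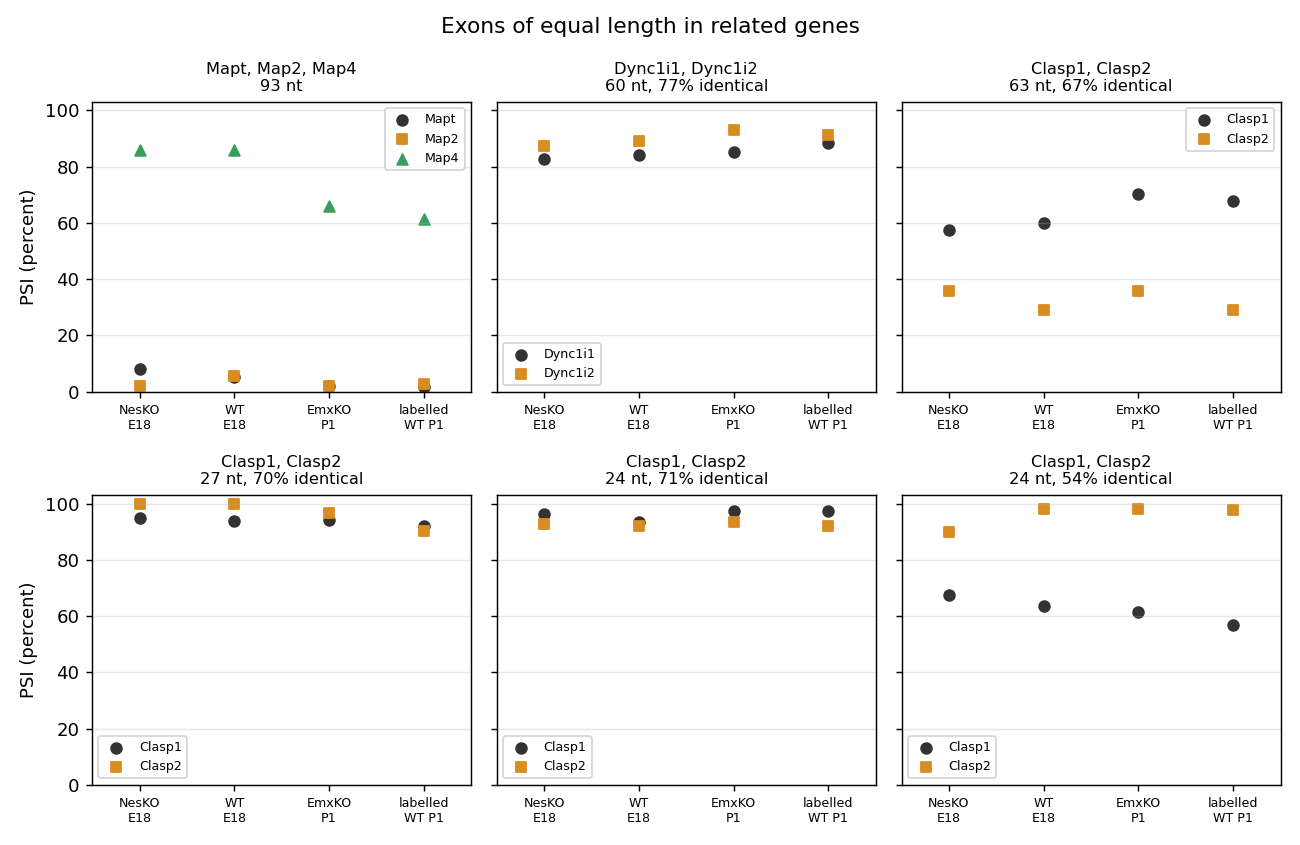
PSI (percent, y axis) in the 4 libraries (x axis) for exons of equal length in related genes, 1 panel per set and 1 symbol per gene. The 93-nt exon is below 9 in *Mapt* and *Map2* and above 61 in *Map4* in every library, and *Clasp1* and *Clasp2* lie apart in the 63-nt pair and in 1 of the 24-nt pairs.

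*Map4* held the largest set of alternatively used exons among the genes of this family. The PSI of its 114-nt exon at E18 was 16.7 without PTBP2 and 15.6 in the wild type, 1.1 points apart. At P1 it was at 17.5 in the EmxKO, with 242 and 280 inclusion reads and 1071 skipping reads, and at 26.6 in the P1 library labelled wild type, with 339, 418 and 882. The EmxKO library was lower, with a difference of -9.1 points (adjusted exact p = 5.5e-07), and the difference from junction reads was -10.5 points (-13.8 to -7.1). All libraries but the P1 library labelled wild type were between 15.6 and 17.5. A 222-nt exon listed in 2 classes was lower in both knockout libraries. In the trio labelled cassette it was at 71.2, 75.9, 72.1 and 75.9, with junction read intervals for the difference of -7.8 to -0.1 and -5.5 to -1.1 and adjusted p of 1 and 0.42. A 190-nt exon was at 35.7, 33.3, 40.5 and 45.0 (adjusted exact p = 1 and 0.11).

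The other alternatively used exons of *Map2* showed little difference within a stage. The 63-nt exon of its 5′ UTR (chromosome 1, 66239693 to 66239755) was at 50.6 in the NesKO and 55.6 in the E18 wild type, and at 17.4 in the EmxKO and 16.1 in the P1 library labelled wild type, with junction read differences of 0.1 and 0.2 points. A 75-nt coding exon was at 99.9, 99.4, 99.7 and 93.2, the largest difference of the gene, with 0, 2, 1 and 3 skipping reads and a junction read difference at P1 of 0.3 points (-0.8 to 1.3).

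In the genes of the motor chains, all tested exons but 1 of *Dync1i1* differed by less than 5 points at both stages. The 60-nt exon of *Dync1i1* (chromosome 6, 5734439 to 5734498) was at 82.5, 84.2, 85.1 and 88.3 and its counterpart in *Dync1i2* (chromosome 2, 71071706 to 71071765) at 87.2, 89.2, 93 and 91.3. Junction reads put the E18 difference between -8.9 and 4.6 points in *Dync1i1* and between -5.2 and 0.2 points in *Dync1i2*, and the P1 difference between -5.8 and -0.7 and between -0.3 and 4.0 points (adjusted exact p of 0.94 and 1 at P1). An 18-nt exon of *Dync1i2* was seldom used, at 6.9, 5.6, 1.9 and 0.6. *Klc1*, the kinesin light chain gene, had 1 alternatively used event among 17, a 131-nt exon near its 3′ end at 14.4, 17.9, 9.1 and 10.6. The junction reads of that exon gave PSI values of 67.5, 75.9, 73.7 and 73.8, far above the deposited ratio, which also uses the coverage of the exons. Such a gap of at least 20 points between both measures occurred in 7 of the 40 events, all labelled constitutive.

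The only member past 10 points at E18 was a 58-nt exon of *Dync1i1* (chromosome 6, 5719734 to 5719791). Its PSI was 73.8 in the NesKO, 92.7 in the E18 wild type, 85.1 in the EmxKO and 92.7 in the P1 library labelled wild type, with differences of -18.9 points at E18 and -7.6 points at P1. Few E18 reads lay behind this, with 50, 42 and 2 reads on the 3 junctions in the NesKO and 86, 40 and 1 in the wild type. The junction reads differed by -2.6 points at E18 (-12.5 to 4.8) and by -1.6 points at P1 (-5.4 to 2.0), and Fisher's exact test gave an adjusted p of 1 at both stages.

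The 58-nt exon is the shortest of 3 forms that end at the same base and start at different acceptors, with lengths of 58, 91 and 142 nt. The 91-nt form is itself a member, at 99.9 in all 4 libraries, and the 142-nt form matched no annotated transcript. Each PSI sets 1 form against skipping, so high values of different forms do not exclude each other. Of the reads from the preceding exon into the 3 acceptors, the 58-nt form took 50 of 431 in the NesKO (11.6%), 86 of 525 in the E18 wild type (16.4%), 308 of 2991 in the EmxKO (10.3%) and 425 of 2699 in the P1 library labelled wild type (15.7%). The 142-nt form took 20 reads (4.64%), 8 (1.52%), 247 (8.26%) and 109 (4.04%) in the same order, so its shares at E18 rest on few reads. In both knockout libraries the longest form was thus more common and the shortest less common than in the library they were compared with. The difference for the 142-nt form was 3.12 points at E18 (0.942 to 5.65) and 4.22 points at P1 (2.98 to 5.46), and for the 58-nt form -4.78 points (-9.12 to -0.323) and -5.45 points (-7.21 to -3.70). The 91-nt form took 80.2 to 83.8% in every library. Where trios list a junction with different read numbers, the highest was used.

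**Figure D3:**
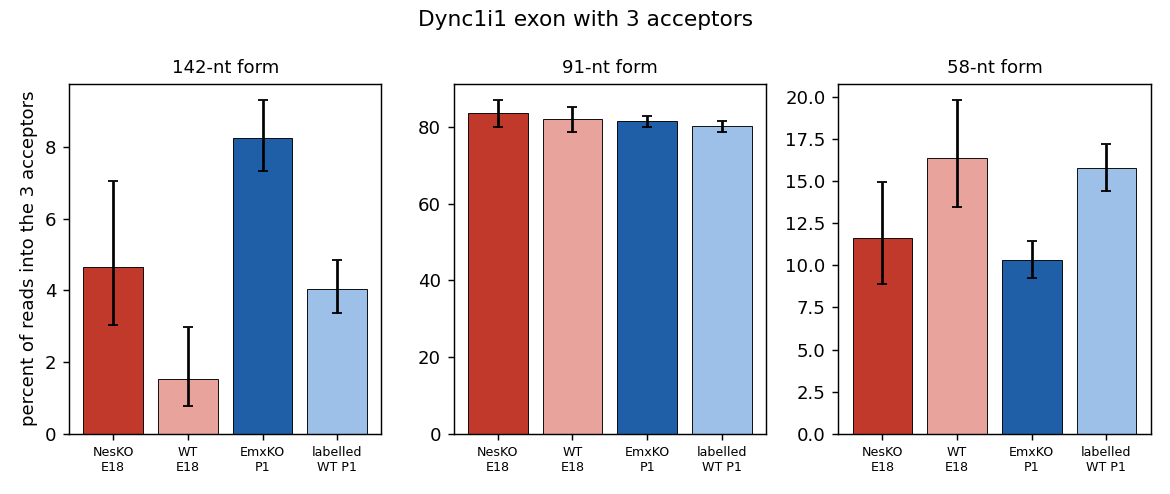
Share of reads (percent, y axis, from 0 with a different scale in each panel) that join the preceding exon to each of the 3 acceptors of the *Dync1i1* exon, in the 4 libraries. Bars are shares of 431 to 2991 reads and error bars are 95% Wilson intervals, which cover counting error only; the 142-nt form is at 8.26% in the EmxKO and 4.04% in the P1 library labelled wild type.

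Among the plus-end genes, *Clasp1* had the clearest difference of all members. Its 117-nt exon, labelled a cassette exon, was at 55.7 in the NesKO and 60.2 in the E18 wild type. At P1 it was at 45.2 in the EmxKO, with 552 and 566 inclusion reads and 651 skipping reads, and at 31.8 in the P1 library labelled wild type, with 343, 398 and 736. The EmxKO library was higher by 13.4 points (adjusted exact p = 4.5e-07), with a junction read difference of 12.7 points (8.7 to 16.6). At E18 the difference was -4.5 points (adjusted exact p = 1), with a junction read interval of -12.8 to 2.6. The difference between the stages had a Wald p of 5.8e-05 before adjustment and 0.065 after adjustment over all events tested at both stages. Of the 300 members tested at both stages, 7 had an unadjusted Wald p below 0.05. No share over all events is given for that count, so it is not read as a result about these genes. The adjusted test was passed by 0 of the 300 members, beside 0.0822% of all events.

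The second member past 10 points at P1 was a 104-nt exon of *Clasp1* (chromosome 1, 120435843 to 120435946), at 99.9 in both E18 libraries, 79.9 in the EmxKO and 94.6 in the P1 library labelled wild type. Only 1 read skipped the exon in each P1 library, beside 366 and 329 inclusion reads in the EmxKO and 364 and 298 in the other. The junction reads differed by 0.014 points (adjusted exact p = 1), so the difference of -14.7 points in the deposited ratio has no counterpart in junction reads. A 108-nt exon (120418404 to 120418511), at 69.3, 77.0, 99.9 and 99.9, had no skipping read in any library.

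In 2 of the 4 short exon pairs of *Clasp1* and *Clasp2*, the genes lay further apart than the libraries of a stage. The 63-nt exon was at 57.6, 59.8, 70.2 and 67.9 in *Clasp1*, and at 35.8, 29.1, 35.9 and 28.9 in *Clasp2*. In *Clasp2* both knockout libraries were higher, by 6.7 points at E18 (adjusted exact p = 1) and by 7.0 points at P1 (adjusted exact p = 0.023), with 107, 193, 1063 and 1163 skipping reads in the 4 libraries. The junction read difference was 5.3 points (-3.4 to 14.4) and 6.3 points (3.2 to 9.4). The upstream 24-nt exon was at 67.4, 63.4, 61.3 and 56.8 in *Clasp1*, and at 90, 98.1, 98.1 and 97.7 in *Clasp2*, where the E18 difference was -8.1 points with 4 skipping reads against 1. The second 24-nt pair was at 93.5 to 97.5 in *Clasp1* and 92.0 to 93.3 in *Clasp2*, and the 27-nt pair at 91.9 to 95 and 90.3 to 99.9. Exons shorter than the reads of 100 nt are listed with unequal reads on both inclusion junctions. In constitutive exons under 50 nt the second-listed junction held a median of 21.2 to 24% of the inclusion reads, against 50% from 100 to 300 nt, which lowers PSI computed from junction reads for the short exons.

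*Clip1*, which encodes the plus-end protein CLIP-170, had 5 alternatively used events of 27 and none past the cutoff. Its 198-nt exon was at 90.9, 94.7, 94.4 and 90.5. The difference was -3.8 points at E18 and 3.9 points at P1, with an adjusted exact p of 1 at both stages and an adjusted Wald p of 0.48 for the difference between them. A 117-nt exon (chromosome 5, 124077303 to 124077419, minus strand) was at 12.5, 10, 10 and 13.4 in the trio labelled cassette, and at 23.1, 23.2, 26.5 and 32.1 in a trio with other neighbors and 4 to 19 skipping reads. The last of these held the largest difference of the gene, -5.6 points at P1. In that trio the junction reads gave PSI values of 81.25, 87.5, 78.3 and 79.1.

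*Macf1*, with 99 events the gene with the most members, had 5 alternatively used exons. The largest difference was in a 234-nt exon (chromosome 4, 123140781 to 123141014, minus strand), at 29.1, 19.8, 21.8 and 12.6. The deposited ratio was higher by 9.3 points in the NesKO and 9.2 points in the EmxKO, with only 3 to 6 skipping reads per library. Junction reads put the PSI of this exon at 78.6, 84.6, 87.5 and 72.7. From junction reads the difference was -6.43 points at E18 (-34.4 to 18.8) and 14.8 points at P1 (-4.8 to 36.8), so the direction at E18 depended on the measure. An 18-nt exon was at 84.5, 90.7, 91.9 and 91.4 (adjusted exact p = 1 at both stages), with a difference of -6.2 points at E18. A 63-nt exon was at 83.7, 85.6, 67.4 and 64.3, and a 327-nt exon at 29.4, 28.0, 16.1 and 16.6. An exon of 5331 nt was at 27.4, 25, 16.2 and 14.1 with 7 to 9 skipping reads. Its junction reads gave PSI values of 63.2, 63.2, 66.0 and 61.1.

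Between the libraries labelled wild type, more members lay apart than between the libraries of a stage, and so did more of all events. The libraries labelled wild type differ in stage, tissue and library type, and in reads that skip the targeted *Ptbp2* exon (1 at E18 and 604 at P1). A gap of 10 points or more was found in 12 of 300 member events, 6 higher and 6 lower in P1 cortex. That is near the share in the whole series, 4.03% of 129922 events. Within a stage, 2.22% of all events passed the cutoff at E18 and 1.47% at P1. Lower in P1 cortex by more than 20 points were the 63-nt exon of *Map2*, with a P1 minus E18 difference of -39.5 points, the 117-nt exon of *Clasp1* with -28.4, the 93-nt exon of *Map4* with -24.4, and the 63-nt exon of *Macf1* with -21.3. Higher in P1 cortex were a pair of 108-nt *Clasp1* exons by 22.9 and 14.5 points and the 97-nt *Mapt* exon by 12.3. In *Map4* the 114-nt exon was higher by 11, and the 190-nt exon by 11.7 and 12.2 in the classes that list it. The *Clasp1* exon with 22.9 points had 0 skipping reads in any library, and its junction reads gave a PSI of 100 in all 4. These values are a description, with no test. The 117-nt exon of *Clasp1* in the EmxKO, at 45.2, lay between both libraries labelled wild type.

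Levels of the 10 genes were compared as mean reads per distinct junction per 1000000 junction reads. *Mapt* was at 28.3 in the NesKO, 27.5 in the E18 wild type, 37.1 in the EmxKO and 30 in the P1 library labelled wild type, and *Klc1* at 29.97, 29.4, 35.2 and 28.1. These were the most abundant of the 10 genes in all 4 libraries, with ratios of knockout to wild type of 1.03 and 1.02 at E18 and 1.24 and 1.25 at P1. *Map2* was at 5.70, 8.12, 7.65 and 13.2, a ratio of knockout to wild type of 0.701 at E18 and 0.579 at P1. *Map4* was at 3.85, 6.30, 7.89 and 8.56, with ratios of 0.611 and 0.921, and *Macf1* at 2.74, 4.19, 4.62 and 4.85, with ratios of 0.655 and 0.952. *Clasp2* had ratios of 0.706 and 0.989, and *Dync1i2* of 0.922 and 0.709. The other 3 genes, *Dync1i1*, *Clip1* and *Clasp1*, had ratios between 0.811 and 1.11.

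A ratio beyond 1.5-fold in either direction was reached by 2 of 10 members at E18 (*Map4* and *Macf1*, both lower), beside 8.01% of 11447 genes, and by 1 of 10 at P1 (*Map2*, lower), beside 20.9% of 11394 genes. Genes with at least 40 distinct junctions had a median ratio of 0.916 at E18, against 0.993 in genes with under 20, and *Map4* and *Macf1* belong to the former. The part of the lower neuronal markers at E18 in these ratios was not tested. In whole tissue, fewer cells of a type and less RNA per cell cannot be told apart.

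**Figure D4:**
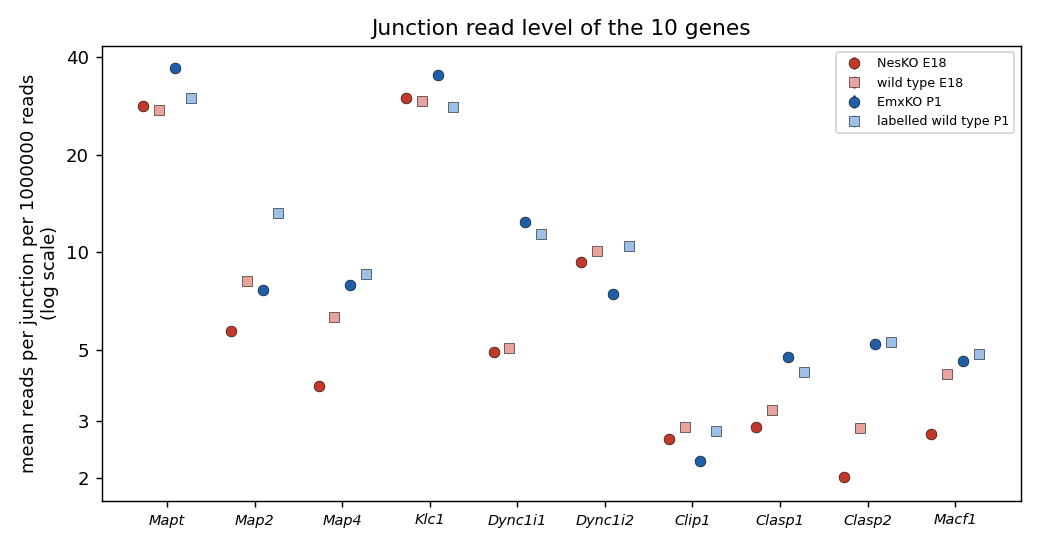
Level of the 10 genes (y axis, mean reads per distinct junction per 1000000 junction reads, log scale) in the 4 libraries; Poisson intervals at the 95% level are smaller than the symbols. *Map2* is at 5.70 in the NesKO and 8.12 in the E18 wild type, and at 7.65 in the EmxKO and 13.2 in the P1 library labelled wild type.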

How the data were processed

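RNAseq of 4 libraries, 1 per group, was analysed. Paired reads of 100 nt were mapped by the authors with SpliceTrap, whose database holds exon trios and duos. The deposited inclusion ratio is a fraction, before and after the correction by SpliceTrap, and the ratio after correction was taken in percent as the PSI. The deposited junction reads are counts, not normalized. Coordinates are in mm9, which the submitters' processing notes name together with CASAVA, TopHat and Cufflinks. Versions are not given in the sources used here.

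Exon ends were recovered from the start and the length. Trios were matched to GENCODE mouse release M21 by lengths alone, and of 228333 trios 207686 matched 1 gene. The trio with the most junction reads stood for each of 192169 events. An event needed at least 20 junction reads in both libraries of a stage and was called at a difference of 10 PSI points. Junction PSI is m/(m + s), with m the mean reads of both inclusion junctions and s the skipping reads. For the Wald test 0.5 was added to each count. Fisher and Wald p-values were adjusted over all events.

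The members and lists were chosen with earlier results of these data known. Named exons were all members past the cutoff, the alternatively used exons of *Mapt*, the largest difference of each other gene and 3 exons of the comparison lists. All other exons in the text were chosen after their values were seen. The nearest trios to the minimum were a *Mapt* exon of 87 nt, with 14 and 21 reads at P1, left out, and a *Macf1* exon of 150 nt, with 53 and 31, kept. Another 41 trios inside the genes matched no annotated lengths and are not members. Of these, 24 describe alternative splice sites and 17 describe exons. In an alternative splice site trio the middle part abuts an exon, so matching by both intron lengths could not name it. Alternative splice sites were thus left out of the members by the matching. Member trios record the skipping of single exons only. Introns around the exons were not analysed here, and 1 exon sequence is not reported here. Alternatives were the ratio before correction, junction reads, other minimums, cutoffs and trios. The calculations used Python 3.11.15, numpy 2.4.6, pandas 2.3.3, scipy 1.17.1 and matplotlib 3.10.9, and were tested on simulated data.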

Additional observations from a re-analysis of the deposited data

Results flagged for a closer look

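At P1, 3 trios of alternative acceptors of *Dync1i1* were higher in the EmxKO than in the P1 library labelled wild type. Their adjusted p from Fisher's exact test was below 0.05. Trios of this class could not be matched as whole exons, so these 3 trios are no members. They describe the 3 forms of the exon given in the report. Inclusion of the 84-nt extension that separates the 58-nt and 142-nt forms was 30.1 in the EmxKO and 9.9 in the other P1 library, a difference of 20.2 points (adjusted exact p = 5.5e-17), and 12.6 in the NesKO and 3.1 in the E18 wild type (adjusted exact p = 1). The 51-nt extension was at 8.5 and 2.8 at P1, a difference of 5.7 points (adjusted exact p = 5.7e-11), and the 33-nt extension at 89.8 and 83.7, a difference of 6.1 points (adjusted exact p = 1.7e-04). The 3 trios share junctions and are not independent of each other. Of 29 trios outside the members that could be tested at E18 and 27 at P1, 2 passed 10 points at each stage.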

How the results depend on the processing

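The counts of members past 10 points are small, and single exons move them. At E18 the count was 1. It became 2 with the ratio before correction or with every trio counted, and 0 with junction reads, with an adjusted Fisher p below 0.05 as well, at 20 points or in exons labelled cassette exons. At P1 the count was 2. It became 1 with the trio with the most skipping reads, with an adjusted Fisher p below 0.05 as well or in exons labelled cassette exons, 0 at 20 points, and 3 with junction reads, a minimum of 10 reads or no minimum. The first-listed junction, an alternative chosen after seeing the data, gave 1 and 2, but only partly of the same exons. At E18 it was the 234-nt exon of *Macf1* with -10.3 points, against 9.3 from the deposited ratio. At P1 it was that exon with 12.8 and the 117-nt exon of *Clasp1* with 14.1, which also passed with the deposited ratio. With the deposited ratio, 1 member passed both the 10-point cutoff and an adjusted p below 0.05, the 117-nt exon of *Clasp1* at P1; with junction reads the 114-nt exon of *Map4* at P1 did so as well, at -10.4 points. The P1 difference of the 104-nt exon of *Clasp1* turned from -14.7 to 0.014 points with junction reads and to 0.0015 points with the first-listed junction; only 1 read skipped it in each library. Of 96 recomputed differences of single named exons, 8 changed sign, 3 of them from under 5 points. The other 5 were the pair of *Clasp1* values just given, the 234-nt exon of *Macf1* at E18 with junction reads and with the first-listed junction, and the 75-nt exon of *Map2* at P1, which went from 6.5 to -6.8 points with the trio with the most skipping reads. Of 72 recomputed Fisher tests, 71 stayed on their side of 0.05. The exception was tau exon 10 at E18, given in the report. Depth limits E18 more than P1. No paired analysis was possible because each group has 1 library, and for the same reason no replicate could be left out.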
